A study of Mus musculus with 7 samples.

Results

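The proteins that carry electrons along the inner mitochondrial membrane, and the ATP synthase that uses the resulting proton gradient, were followed at the RNA level in mouse bone-marrow-derived macrophages (BMDMs), which are macrophages grown from bone marrow cells in culture. Genes were chosen by name and annotated type, not by any measured value: protein-coding genes of the LPS table with symbols that begin with Nduf followed by a, b, c, s or v and a number, with Uqcr, with Cox4 to Cox8 or with Atp5, or that are Sdha, Sdhb, Sdhc or Sdhd, and that were also in the AAV table. This gave 81 genes of the 48440 genes in the LPS table and the 55352 in the AAV table, of which 37 belong by name to complex I, 4 to complex II, 8 to complex III, 18 to complex IV and 14 to ATP synthase. In all, 84 protein-coding symbols of the LPS table matched, and 3 of them (Atp5f1, Atp5s and Atp5sl) had no row under that symbol in the AAV table.

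The study asked what SHISA3, a transmembrane protein, does in macrophages. In 1 experiment BMDMs of C57BL/6 mice, grown in 20 ng per mL of M-CSF, received LPS, a bacterial cell wall component that macrophages sense, at 100 ng per mL for 2 h or 4 h, or were left without it (0 h). Each time point is 1 library. In the other, BMDMs received an adeno-associated virus (AAV) that carried GFP or Shisa3, and 2 samples of each group were sequenced after 48 h. All 7 samples came from wild-type cells, the AAV-Shisa3 samples being labelled as Shisa3 overexpression. Both vectors were of serotype 1 and drove their insert from the CAG promoter, which is active in most cell types and so is not restricted to macrophages, and AAV-GFP was the control for the virus itself. The labels do not say whether the 2 samples of a group came from separate cultures or animals, so p-values measure only the spread between these samples. RNA was taken from whole cultures, in which fewer cells of a type and less RNA per cell cannot be told apart.

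Oxidative phosphorylation passes electrons from NADH (through complex I) or from succinate (through complex II, succinate dehydrogenase) to ubiquinone, then through complex III to cytochrome c and through complex IV to oxygen. Complexes I, III and IV pump protons, and ATP synthase lets them flow back to make ATP. A minority of the subunits is encoded by mitochondrial DNA, while the nucleus encodes the rest, complex II entirely. Macrophages stimulated with LPS are known for a shift from oxidative phosphorylation toward glycolysis, in which complex II, the only complex that is also an enzyme of the tricarboxylic acid cycle, is inhibited by itaconate.

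The libraries differed in depth. The LPS libraries held 15588502 reads on genes at 0 h, 7263258 at 2 h and 32659392 at 4 h, and the depth behind the AAV table is unknown. All 7 macrophage markers examined were detected in each AAV sample and summed to between 34024 and 37119 TPM (transcripts per 1000000 transcripts, which takes length into account). Markers of B cells summed to at most 0.33 TPM, of erythroid cells to at most 0.82, of dendritic cells to at most 1.06, of T cells to at most 10.5 and of fibroblasts to at most 16.4. Granulocyte markers stood higher with AAV-Shisa3: 8 of 8 tested lay in both AAV-Shisa3 samples above both AAV-GFP samples, as did 18.2% of all genes tested, and their sum of 593 and 565 TPM compared with 1092 and 683. Shisa3 itself was read at 7.88 and 10.85 TPM with AAV-GFP and at 12.31 and 17.81 with AAV-Shisa3, higher in both samples, but the difference did not pass the test (log2 fold change 0.63 ± 0.22 SE, n = 2 per group, limma adjusted p = 0.138). In the LPS libraries Shisa3 had 1 read at 0 h, 164 at 2 h and 3174 at 4 h.

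Respiratory chain and ATP synthase transcripts were abundant. Summed over the 81 genes they made up 15799 and 15396 TPM with AAV-GFP and 16682 and 15427 with AAV-Shisa3, next to 14235 to 16380 TPM for the 13 subunits encoded by mitochondrial DNA. In the AAV-GFP samples the median level over tested genes was 100.7 TPM for complex I, 121.6 for complex II, 177.1 for complex III, 220.0 for complex IV and 277.9 for ATP synthase. This order was the same in each of the 4 AAV samples, and on the log2(TPM + 1) scale the median of ATP synthase lay 1.43 to 1.58 above that of complex I. Complexes I and II lay 0.20 to 0.30 apart. In the LPS library at 0 h, on values divided by exon length, complex I again had the lowest median (235 per kilobase), while the other 4 lay between 463 for ATP synthase and 590 for complex IV. Over the 76 genes measured in both experiments the levels correlated across genes with Pearson's r = 0.721 and Spearman's rho = 0.516, a description over genes that share libraries. Of the 81 genes, 28 have exon bases in common with another annotated gene, 11 of them at least 200 bases (among them Cox5a, Ndufb6, Ndufs1 and Uqcrc2), and whether counting used strand is not given in the sources used here, so their values may include reads of the neighbour.

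**Figure D1:**
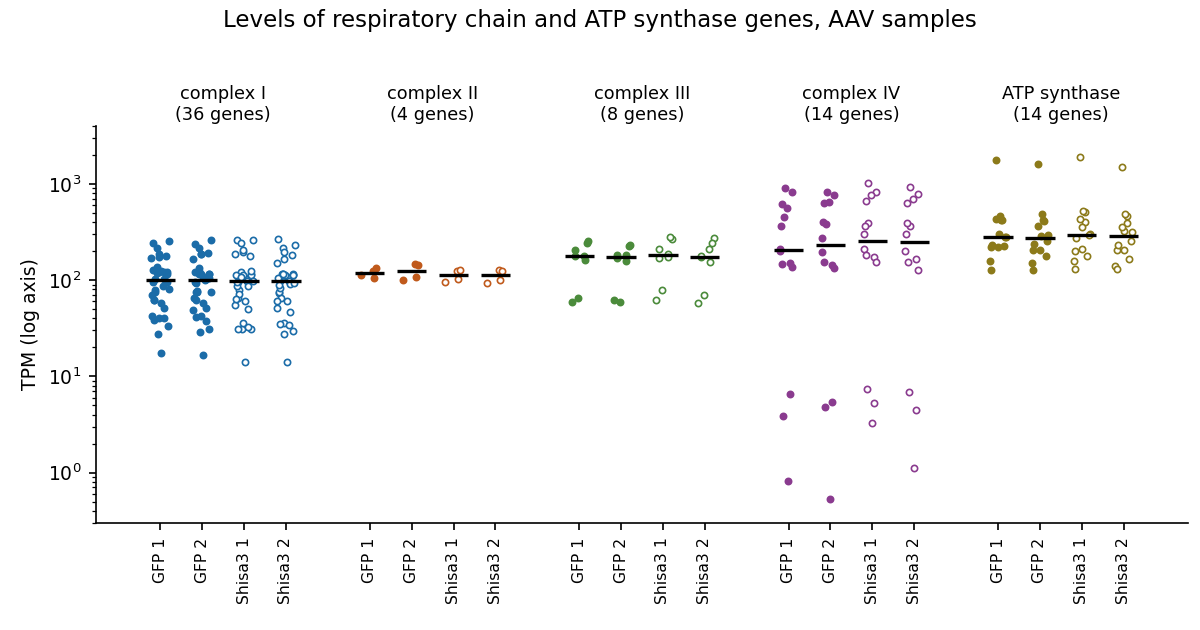
Level of each subunit in TPM (log axis) in the 4 AAV samples, grouped by complex, with 1 point per tested gene (filled for AAV-GFP, open for AAV-Shisa3) and a bar at the median. ATP synthase subunits sit highest, with Atp5b on top, and the low points of complex IV are its tissue-restricted isoforms.

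Levels ranged widely within every complex but complex II. Atp5b, which encodes the catalytic beta subunit of ATP synthase, was the most abundant at 1784 and 1621 TPM with AAV-GFP and 1911 and 1483 with AAV-Shisa3. Cox4i1, the ubiquitous form of complex IV subunit 4, followed in complex IV with 911 and 833 against 1025 and 920 TPM. In complex III the highest AAV-GFP mean was that of Uqcr10 (244.1 TPM) and the lowest that of Uqcrc2, a core protein (60.6 TPM). Complex I ran from Ndufb4 at 17.2 TPM to Ndufb8 at 259.9 TPM, both accessory subunits. The level of Ndufb4 is uncertain, since the same table lists a related gene, Ndufb4c, at 141.81 and 117.55 TPM with AAV-GFP, and reads may be split between them. The 4 subunits of succinate dehydrogenase, which assemble 1 to 1, were the tightest set, between 106.3 TPM (Sdhd) and 139.0 TPM (Sdhb).

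Several subunits of complex IV exist in alternative forms, and the macrophages carried mainly the widely expressed ones. Cox6a1, the common form of subunit 6A, exceeded the heart and muscle form Cox6a2 by 211-fold and 161-fold with AAV-GFP and by 111-fold and 114-fold with AAV-Shisa3. Cox6b1 exceeded the testis form Cox6b2 by 559-fold and 727-fold against 119-fold and 325-fold. Cox7a2 exceeded the heart and muscle form Cox7a1 by less, 22.6-fold and 28.1-fold against 34.9-fold and 34.6-fold, and stood level with Cox7a2l, a related protein known as a supercomplex assembly factor, with ratios of 0.977 and 1.06 against 1.05 and 0.926. Cox4i2 and Ndufa4l2, forms linked to low oxygen, had at most 1 read in any LPS library and at most 0.60 TPM in any AAV sample. Cox7b2, Cox8b and Cox8c were listed at 0 throughout, which a count of 0 in the LPS libraries puts at no more than 3 reads each. These 5 were the genes left out by the filters on low values, so that 76 were compared in each experiment.

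Promoters were searched because genes of the respiratory chain are known as shared targets of a few transcription factors, above all NRF1 and GABPA (NRF2), with YY1 and CREB also described. RefSeq promoter sequences on GRCm38.p6, from 250 bases before to 50 after the start of transcription, were at hand for 66 of the 81 genes (71 promoters, since some genes have several) and for 32851 promoters in all. The core of the NRF1 motif, GCGCA and GCGC with any base between them, was found on either strand in 18 of 71 promoters (25.4%), compared with 4.60% of all promoters. The GABPA core CCGGAAG was found in 16 of 71 (22.5%), compared with 8.86%, and the YY1 core ATGGCGG in 11 of 71 (15.5%), compared with 4.05%. The cyclic AMP response element TGACGTCA, bound by CREB, was found in 4 of 71 (5.63%) compared with 1.79%. The shares of the SP1 core GGGCGG (38.0% compared with 35.7%) and of the NF-kB motif, GGGA and TTCC with any 2 bases between them (1.41% compared with 1.47%) lay closer to those of all promoters. Of the 66 genes, 36 had a match to at least 1 of NRF1, GABPA and YY1, 7 had matches to at least 2 and 0 had all 3. ATGGCGG can also be the first codons of a protein, and 4 of 10 YY1 matches lay before the start, where 18 of 23 NRF1 matches and 12 of 19 GABPA matches did. Over all matches, those after the start included, the median position was 24 bases after it for YY1, 40 bases before it for NRF1 and 13 bases before it for GABPA. Of the matches to different motifs, 1 GABPA match overlapped an SP1 match.

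**Figure D2:**
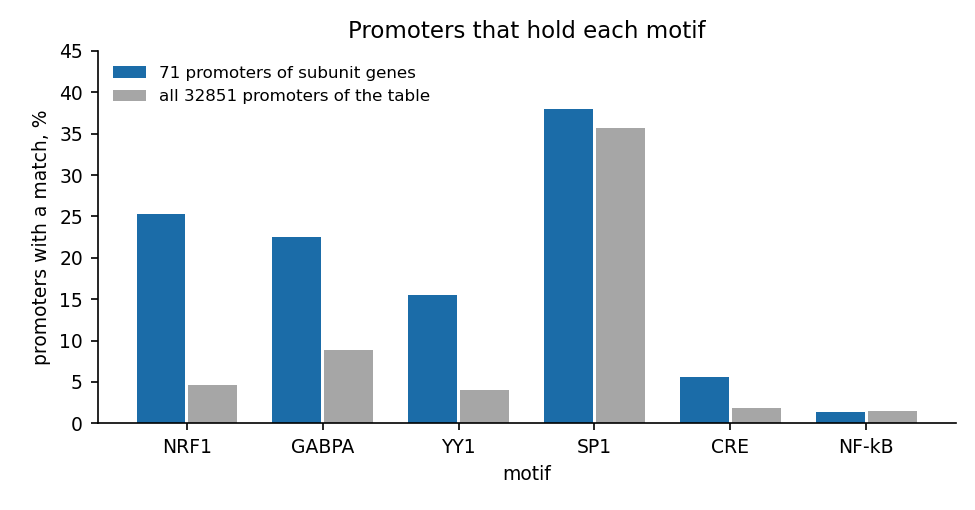
Share of promoters in percent that hold each of 6 motifs, for the 71 promoters of respiratory chain and ATP synthase genes and for all 32851 promoters. The bars for NRF1 (25.4% and 4.60%), GABPA (22.5% and 8.86%) and YY1 (15.5% and 4.05%) differ most.

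To show the matches, 1 promoter window is printed for subunits of different complexes, 5′ to 3′ on the strand of the gene, all 10 genes being on the minus strand. Capitals mark the NRF1 match in the next 4 windows, which lie 45, 69, 107 and 40 bases before the start of Sdha (chr13:74350277-74350304), Ndufb4 (chr16:37654429-37654456), Cox6a1 (chr5:115349057-115349084) and Atp5k (chr5:108434431-108434458).
Sdha: gggcgtgttGCGCAGGCGCagaatcttc
Ndufb4: cttgtgcgcGCGCAGGCGCacttcctga
Cox6a1: ggataaagtGCGCAGGCGCtggagttcc
Atp5k: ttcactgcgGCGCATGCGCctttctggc
Capitals mark the GABPA match in the next 5, which reads CTTCCGG where it lies on the other strand, 39, 21, 59, 20 and 95 bases before the start of Sdhd (chr9:50603878-50603905), Cox6b1 (chr7:30626125-30626152), Uqcr11 (chr10:80406870-80406897), Ndufs3 (chr2:90904731-90904758) and Atp5e (chr2:174464186-174464213).
Sdhd: cgtctcctgcCTTCCGGttcacgcttca
Cox6b1: cctctcgcagCTTCCGGccagtcggaat
Uqcr11: tctctcctccCCGGAAGtagatgtcaat
Ndufs3: ccgcgtccgcCCGGAAGaagagtcactg
Atp5e: acggccacagCTTCCGGtagccgctcgg
The last window shows the cyclic AMP response element 21 bases before the start of Uqcrfs1 (chr13:30545328-30545355).
Uqcrfs1: ggcgtcgcgcTGACGTCAcaaaccctgc
A match is a description of letters and not a measured binding site. The genes with a match are set beside those without one in the results of both experiments.

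With LPS both the direction and the size of the change in the nuclear genes of the respiratory chain hung on the scale. On the deposited values, each the number of reads scaled by a factor of the library, the median log2 fold change over 76 genes was 0.29 at 2 h and 0.16 at 4 h, compared with -0.05 and -0.04 over all 17854 genes kept, whereas with the libraries set to equal totals it was -0.37 and -0.64, compared with -0.68 and -0.81, since equal totals multiply each fold by 0.632 at 2 h and 0.565 at 4 h. Relative to the median of all genes, the group lay 0.34 higher at 2 h and 0.21 at 4 h on the deposited values, and 0.32 and 0.17 higher with equal totals. In this relative sense 65 of 76 genes stood above the median of all genes at 2 h and 56 at 4 h, or 62 and 56 with equal totals. As there is 1 library per time point, these differences have no replicate check and no test, and the intervals given for single genes cover counting error only. The total over the 81 genes was 57444 at 0 h, 73574 at 2 h and 68900 at 4 h on the deposited values, but as a share of all reads it was 0.573%, 0.464% and 0.388%.

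On the deposited scale few members moved by 1.5-fold. At 2 h, 14 of 76 were at least 1.5-fold higher and 3 lower, where 29.4% and 34.1% of all genes passed the same limits. At 4 h, 9 were higher and 1 lower, where 30.8% and 32.9% of all genes passed. The genes kept include some with few reads, 1 read at 2 h being worth 2.18 on the deposited scale. The part of counting error in the shares of all genes was not tested. Between 2 h and 4 h, 6 were higher and 9 lower, where 29.2% and 24.7% passed, and the median was -0.09 compared with 0.05. With equal totals 2 were higher and 20 lower at 2 h (18.7% and 53.7% of all genes), 0 and 43 at 4 h (17.6% and 57.9%), and 2 and 18 from 2 h to 4 h (23.3% and 29.5%). Whether more members were higher or lower at 2 h and at 4 h than at 0 h therefore turned with the scale, whereas from 2 h to 4 h more were lower on both of these scales but 7 were higher and 7 lower after centring. The highest of the 3 deposited values was at 2 h for 42 of the 76 genes, at 4 h for 27 and at 0 h for 7. With equal totals it was at 0 h for 65, at 2 h for 10 and at 4 h for 1.

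**Figure D3:**
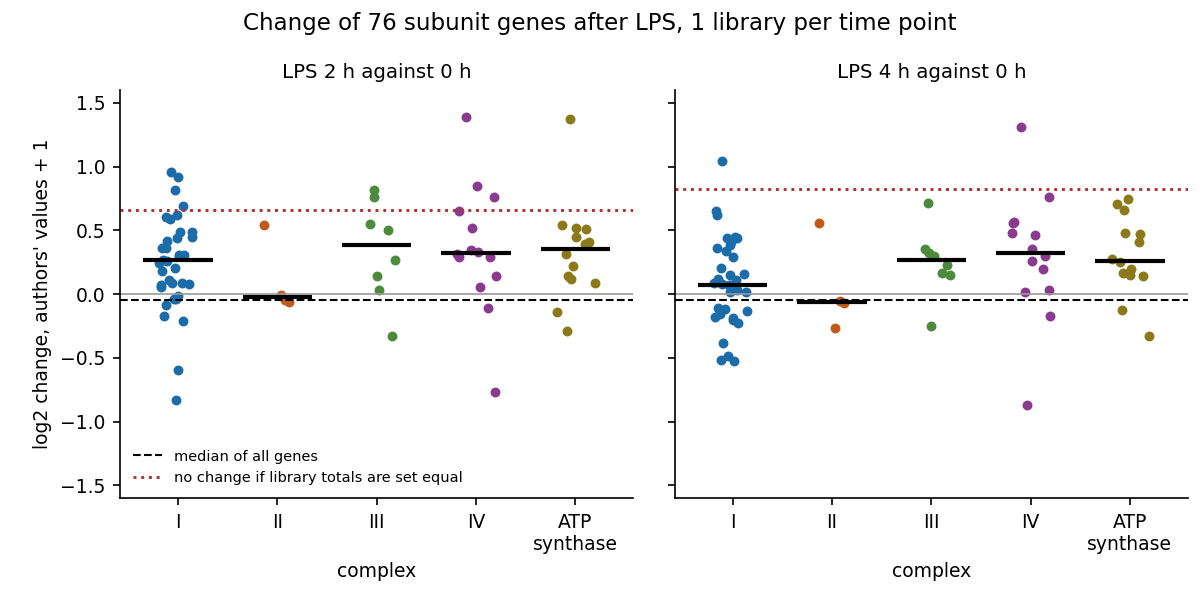
Log2 fold change of each subunit at 2 h and at 4 h of LPS against 0 h on the deposited values, 1 point per gene, grouped by complex, 1 library per time point; bars are medians of a complex, the dashed line is the median of all genes and the dotted line marks no change if library totals are set equal. The points of complexes III and IV and of ATP synthase lie mostly above 0, while 3 of the 4 points of complex II lie just below it at both times.

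Of complex II, 3 of the 4 members were slightly lower and 1 was higher on the deposited scale. Levels are given here as deposited values at 0 h, 2 h and 4 h, in that order. Sdha, which holds the flavin that oxidizes succinate, read 2381 at 0 h, 2280 at 2 h and 2268 at 4 h, or 0.952-fold at 4 h (95% counting interval 0.911 to 0.996). Sdhb, the iron-sulfur subunit, read 1171, 1166 and 971, which at 4 h is 0.829-fold (0.777 to 0.885). Sdhd, a membrane anchor, read 973, 941 and 938. Sdhc, the other anchor, was the exception with 655, 952 and 965, or 1.47-fold at 4 h (1.36 to 1.59). Of the 4 genes, 3 were highest at 0 h, compared with 7 of all 76 genes, and with equal totals all 4 were, compared with 65 of 76. On the scale of equal totals, given as CPM (counts per 1000000 reads of the library), Sdha read 237, 144 and 128, Sdhb 117, 73.5 and 54.7, and Sdhc 65.3, 60.0 and 54.3.

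Complex I held genes that moved in both directions, with a median log2 fold change of 0.26 at 2 h and 0.07 at 4 h over 36 genes, and -0.40 and -0.75 with equal totals. Its 7 nuclear-encoded core subunits, which carry electrons and are shared with bacteria, had medians of 0.18 and 0.03. Of these, 0 reached 1.5-fold at either time. With equal totals 53.7% of all genes were at least 1.5-fold lower at 2 h and 57.9% at 4 h. On that scale these core subunits had medians of -0.48 and -0.79, and 2 of the 7 were that much lower at 2 h and 6 at 4 h. Among them Ndufv1, which binds NADH and FMN, read 613, 830 and 625, and Ndufs7, near the quinone site, read 360, 338 and 252, or 0.698-fold at 4 h (0.618 to 0.790). Of the accessory subunits, Ndufs4 read 289, 387 and 598, which at 2.07-fold (1.85 to 2.31) was the highest fold of complex I at 4 h. In CPM Ndufs4 read 28.9, 24.4 and 33.7, so that it was the only gene of complex I above its 0 h level at 4 h on both scales. Ndufa8 read 383, 474 and 266 and was at 0.695-fold (0.616 to 0.783). Chosen after their values were seen, Ndufa2 (444, 863 and 561) and Ndufb7 (455, 860 and 558) were the highest of complex I at 2 h, at 1.94-fold (1.71 to 2.20) and 1.89-fold (1.67 to 2.14), and Ndufa12 (117, 65.5 and 118) the lowest, at 0.560-fold (0.381 to 0.821) on 30 reads.

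In complex III the median log2 fold change over 8 genes was 0.38 at 2 h and 0.26 at 4 h, and -0.28 and -0.56 with equal totals. Uqcrfs1, the Rieske iron-sulfur protein that passes electrons toward cytochrome c, read 742, 1306 and 1221, and was 1.76-fold higher at 2 h (1.59 to 1.94) and 1.64-fold at 4 h (1.53 to 1.77). In CPM it stood at 74.0, 82.3 and 68.8, so that at 4 h it was higher on the deposited scale and lower on the other. Uqcrb, a small subunit near the quinone site, went the other way at 2 h with 567, 450 and 664. Uqcr11 had the lowest fold at 4 h (522, 576 and 440; 0.842-fold, 0.764 to 0.928).

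In complex IV the median over 14 genes was 0.32 at both times, and -0.34 and -0.50 with equal totals. Cox5a, a subunit common to all tissues, read 553, 937 and 936, and stood at 1.69-fold at 2 h (1.51 to 1.90) as at 4 h (1.56 to 1.84). Cox4i1 read 2738, 4918 and 3492, or 1.80-fold at 2 h (1.71 to 1.89), and in CPM 273, 310 and 197. Cox7b, chosen after its values were seen, read 695, 408 and 710, which at 0.587-fold (0.503 to 0.686) was the lowest of complex IV at 2 h. Among tissue-restricted forms, Cox7a1 had a high fold (2.83 at 2 h, 1.25 to 6.40) on 12, 10 and 38 reads, and Cox6b2 the lowest fold at 4 h (0.469, 0.165 to 1.33) on 9, 4 and 5 reads, whose interval includes 1.

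ATP synthase had medians of 0.35 at 2 h and 0.26 at 4 h over 14 genes, and -0.31 and -0.56 with equal totals. Atp5e, the small epsilon subunit of the central stalk, read 504, 1304 and 796. At 2.59-fold (2.33 to 2.88) at 2 h it had the highest fold among genes with more than 100 reads at 0 h, and it stayed higher in CPM at 2 h (50.2, 82.2 and 44.9) but not at 4 h. Atp5b read 4676, 6807 and 7634, or 1.63-fold at 4 h (1.59 to 1.68), and in CPM 466, 429 and 430. The 3 genes for the c subunit of the rotor ring, whose mature proteins are identical, differed, though reads may be split among such similar copies: Atp5g3 read 641, 747 and 1075, Atp5g1 344, 312 and 416, and Atp5g2 875, 930 and 695, so that at 4 h Atp5g3 was at 1.68-fold (1.55 to 1.81), Atp5g1 at 1.21-fold (1.08 to 1.35) and Atp5g2 at 0.794-fold (0.736 to 0.857). Folds of the same 2 libraries carry 1 common factor, so the ratio of Atp5g3 to Atp5g2 does not hang on the scale.

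Subunits encoded by mitochondrial DNA did not move with the nuclear ones in the 2 h library. All 12 that were kept were at least 1.5-fold lower at 2 h, as were 34.1% of all genes. The median log2 fold change of the 12 was -3.46. At 4 h they were near the 0 h level on the deposited scale, with a median of 0.15. At that time 1 was higher and 2 lower, where 30.8% and 32.9% of all genes were. mt-Co1, the catalytic subunit of complex IV, read 56744, 11774 and 65632. mt-Cytb of complex III read 3023, 269 and 3810, and mt-Nd4 of complex I 659, 26.2 and 741. As a share of all reads the mitochondrially encoded subunits took 0.653%, 0.080% and 0.426%. Of the 101820, 5814 and 139078 reads behind these shares, mt-Co1 alone held 88213, 5392 and 120778. The 2 h library is also the shallowest, and the sum of granulocyte markers was highest in it, at 4745, 9982 and 7046. Of 9 markers 5 were at least 1.5-fold higher at 2 h and 0 lower, where 29.4% and 34.1% of all genes were. At 4 h the counts were 4 and 4, where 30.8% and 32.9% of all genes passed. The part of these features of the 2 h library in the values of the nuclear subunits was not tested.

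**Figure D4:**
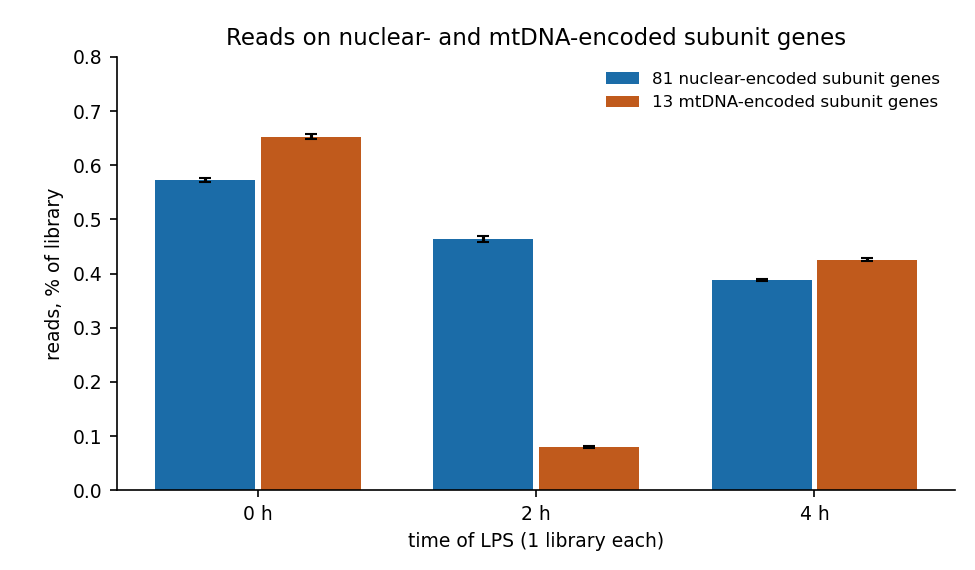
Share of all reads in percent taken by nuclear-encoded and by mitochondrially encoded subunits at 0, 2 and 4 h of LPS, 1 library per time point, with 95% Wilson intervals for counting error. The nuclear share goes from 0.573% to 0.464% and 0.388%, and the mitochondrial share from 0.653% to 0.080% and 0.426%. Most of the mitochondrial reads at each time are those of mt-Co1.

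Genes with and without a motif in their promoter are set side by side here, with no test. At 2 h the median log2 fold change was 0.22 over 17 genes with an NRF1 match and 0.29 over 47 without, 0.23 over 16 with a GABPA match and 0.29 over 48 without, and 0.45 over 10 with a YY1 match and 0.28 over 54 without. At 4 h the same pairs read 0.15 and 0.15, 0.29 and 0.10, and 0.14 and 0.15. Ndufb6, the 1 gene with the NF-kB letters, read 148, 155 and 233.

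With AAV-Shisa3 no subunit passed the test. Of 76 tested genes 0 were higher and 0 lower at a limma adjusted p under 0.05, where 2.23% and 4.1% of the 11218 genes tested passed. At an unadjusted p under 0.05, 8 were higher and 6 lower, where 8.21% and 19.8% of all genes passed. Without the variance trend of limma 0 members passed the adjusted threshold as well, where 1 of the 11218 genes was higher and 4 lower. Both AAV-Shisa3 samples lay above both AAV-GFP samples for 24 genes and below them for 22, while the groups overlapped for 30; of all genes tested 18.2% lay above and 41.2% below. The median log2 fold change was -0.01, compared with -0.10 over all genes. Once each sample was centred on its own median the group's median became 0.11 and 1 gene, Cox6a2, passed (0.73, adjusted p = 0.0455), while at an unadjusted p 22 were higher and 0 lower, where 14.7% and 10.5% of all genes passed. Between samples of a group the median absolute log2 difference of the members was 0.087 (AAV-GFP) and 0.092 (AAV-Shisa3), which is under the 0.131 and 0.132 of all genes. With 2 samples against 2 an exact permutation test of a single value cannot go below p = 0.333.

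**Figure D5:**
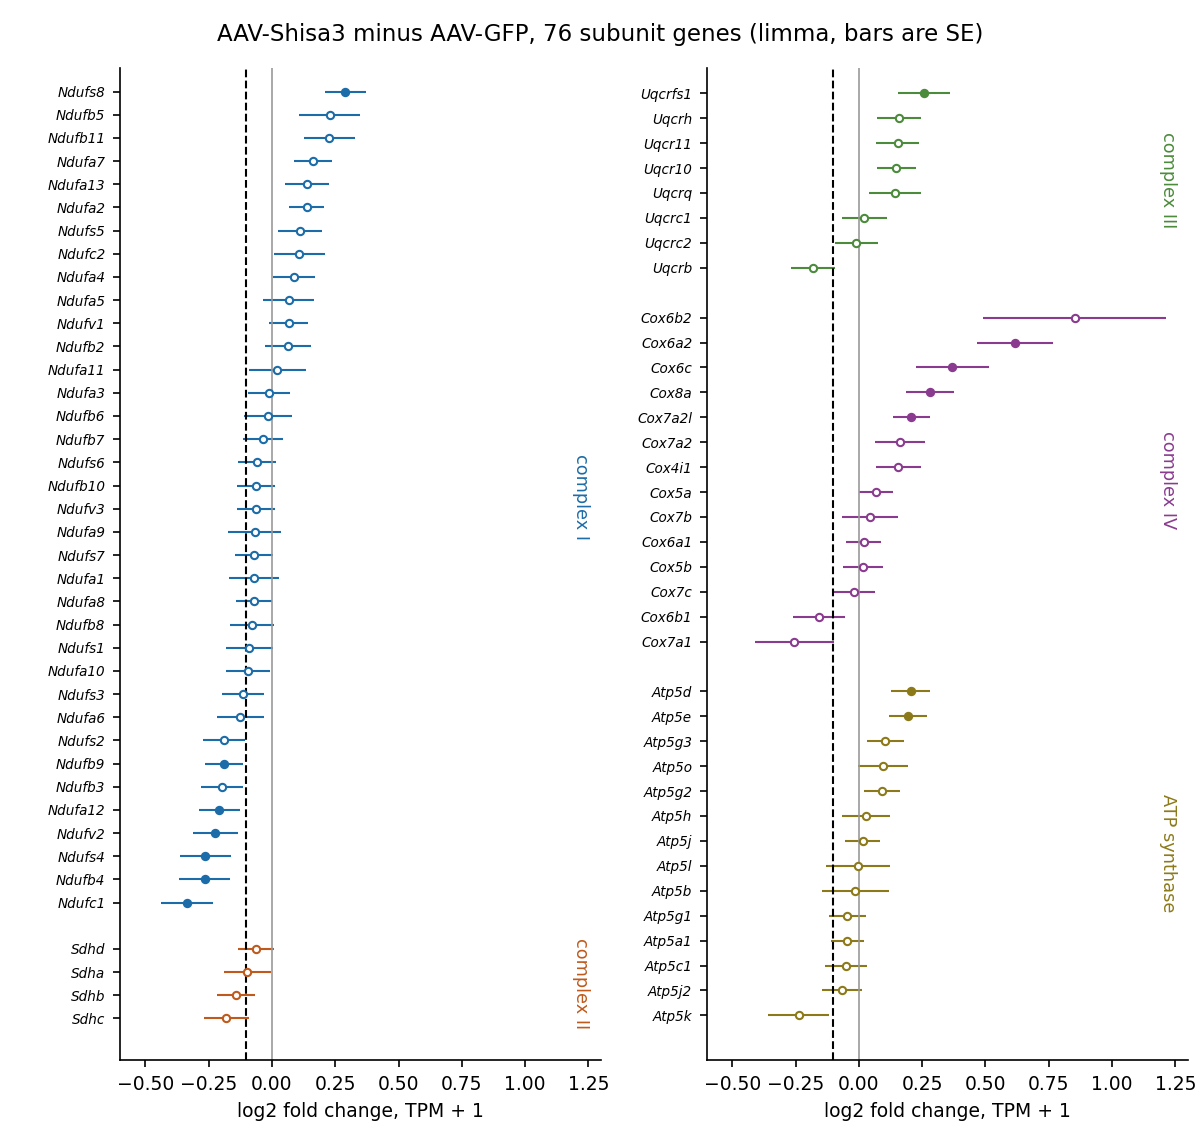
Log2 fold change of each tested subunit in AAV-Shisa3 against AAV-GFP with its standard error (n = 2 per group), grouped by complex; filled points have an unadjusted p under 0.05 and the dashed line is the median of all genes, -0.10. No point passed the adjusted threshold. The filled points below 0 are all of complex I, 6 of its 36, where 19.8% of all genes were lower at that p. Those of complex IV, 4 of its 14, are all above 0, where 8.21% of all genes were higher. Centring, not drawn here, put 27 of the 36 complex I genes above 0.

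Complex I held all 6 of the genes lower at an unadjusted p and had a median of -0.06. In both samples 15 of its 36 genes were below and 7 above. Of all genes 19.8% were lower at that p, and 41.2% were below and 18.2% above in both samples. After centring the median of complex I turned to 0.05, with 27 of 36 genes above 0. Ndufs8, a core subunit with iron-sulfur clusters, went the other way. Its TPM in the AAV-GFP samples was 80.45 and 75.90 against 98.59 and 92.95 with AAV-Shisa3, so that both of the latter were higher (0.29 ± 0.08 SE, adjusted p = 0.0903). Ndufc1, an accessory subunit, read 122.70 and 103.04 TPM against 87.63 and 90.42, both lower (-0.33 ± 0.10, adjusted p = 0.109). Ndufs4, the accessory subunit whose loss causes a form of Leigh syndrome, read 38.49 and 41.45 TPM against 31.13 and 35.24, again without overlap (-0.26 ± 0.10, adjusted p = 0.165). Ndufb4 read 17.65 and 16.76 against 14.07 and 14.20 (-0.27 ± 0.10, adjusted p = 0.160), and the core subunit Ndufv2 40.88 and 37.95 against 32.95 and 34.22 (-0.22 ± 0.09, adjusted p = 0.173). In these 3 the AAV-Shisa3 samples lay below both controls, none past the adjusted threshold. Of the 7 nuclear-encoded core subunits 2 were above in both samples and 4 below, where 18.2% and 41.2% of all genes were.

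The 4 subunits of complex II differed by less than the test could call. Sdhb read 133.97 and 144.12 TPM against 126.65 and 124.86 (-0.14 ± 0.08, adjusted p = 0.275). Sdhc read 114.12 and 101.33 against 96.64 and 93.01 (-0.18 ± 0.09, adjusted p = 0.243), and Sdhd 104.91 and 107.71 against 102.10 and 101.52 (-0.06 ± 0.07, adjusted p = 0.608). For these 3 both AAV-Shisa3 samples were below both AAV-GFP samples, as they were for 41.2% of all genes tested. Sdha overlapped, with 125.38 and 145.58 against 124.25 and 128.39, and after centring its log2 fold change turned from -0.10 to 0.02, as that of Sdhd turned to 0.05.

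In complex III the median was 0.15 (0.26 after centring and 0.07 with the length trend removed), and 4 of 8 genes were above in both samples and 1 below, where 18.2% and 41.2% of all genes were. Uqcrfs1 read 65.51 and 59.14 TPM against 79.95 and 69.72, higher in both (0.26 ± 0.10, adjusted p = 0.173). Uqcrb, the 1 gene below, read 207.09 and 183.98 against 168.56 and 175.64 (-0.18 ± 0.08, adjusted p = 0.230).

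In complex IV the median was 0.11 (0.23 after centring and 0.06 with the length trend removed, where 8 genes lay above 0 and 6 below, compared with 11 and 3). In both samples 8 of 14 genes were above and 1 below, and 4 were higher at an unadjusted p, where 18.2%, 41.2% and 8.21% of all genes were. Cox6a2, the muscle form, had the smallest adjusted p of all members: it read 3.88 and 4.79 TPM against 7.38 and 6.94, higher in both samples (0.62 ± 0.15, adjusted p = 0.0693). Cox6a2 shares 70 exon bases with Itgad on the opposite strand, so its value may include reads of that neighbour. Cox6b2, the testis form, had the largest difference but also the widest spread, with 0.82 and 0.53 TPM against 3.28 and 1.12 (0.85 ± 0.36, adjusted p = 0.192). Its change was 0.35 without AAV-Shisa3 sample 1 and 1.36 without AAV-Shisa3 sample 2. These are the low-level forms of the complex, on which the pseudocount of 1 weighs most. Of the abundant subunits, Cox8a read 567 and 647 TPM against 776 and 699 (0.28 ± 0.10, adjusted p = 0.133), and Cox7a2l 150.75 and 144.80 against 174.20 and 167.39 (0.21 ± 0.07, adjusted p = 0.137), both without overlap. Cox6b1 read 458 and 385 against 389 and 364, and the groups overlapped (-0.16 ± 0.10, adjusted p = 0.355).

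For ATP synthase the median was 0.01 (0.12 after centring and -0.02 with the length trend removed), with 5 of 14 genes above in both samples and 2 below (18.2% and 41.2% of all genes). Both small subunits of the central stalk were higher in both samples: Atp5d, the delta subunit, read 300.58 and 290.16 TPM against 356.45 and 325.73 (0.21 ± 0.08, adjusted p = 0.157), and Atp5e 422.85 and 424.44 against 506.63 and 463.21 (0.19 ± 0.07, adjusted p = 0.166). Atp5k, the membrane subunit e, was the lowest, with 226.07 and 179.15 against 176.18 and 165.05 (-0.24 ± 0.12, adjusted p = 0.260), which became -0.07 without AAV-GFP sample 1 and -0.40 without AAV-GFP sample 2. Atp5b overlapped widely (1784 and 1621 against 1911 and 1483; -0.01 ± 0.13, adjusted p = 0.951).

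Genes of related pathways were read from lists, and their calls stand beside 2.23% of all genes called higher and 4.1% called lower. The 13 mitochondrially encoded subunits had 0 calls in either direction, and a median of 0.09. Their highest, mt-Nd4l, read 46.77 and 108.07 TPM against 120.73 and 131.03 (0.81, adjusted p = 0.204), and its log2 fold change was 0.22 without AAV-GFP sample 1 and 1.41 without AAV-GFP sample 2. Of 46 tested assembly factors 1 was lower, Tmem126b, which helps build complex I (-0.77, adjusted p = 0.0343), and 0 higher, with a median of -0.10. Of 18 genes of the tricarboxylic acid cycle 0 passed, with a median of -0.11 and values between -0.26 (Suclg2) and 0.21 (Idh3a). Of 18 genes for electron carriers and ubiquinone synthesis 1 was lower, Etfdh, which feeds electrons from fatty acid oxidation into ubiquinone (-0.54, adjusted p = 0.0465), and 0 higher, with a median of -0.07. Of 20 regulators of mitochondrial genes 1 was lower, the transcription factor Yy1, at 31.61 and 32.12 TPM against 19.52 and 21.82 (-0.60, adjusted p = 0.0319), and 0 higher, with a median of -0.13. Of 10 genes for mitochondrial defence and uncoupling 1 was higher, Acod1, which makes itaconate, at 1263 and 1248 TPM against 2014 and 1955 (0.66, adjusted p = 0.0174), and 0 lower. These 4 calls were lost when any 1 sample was left out, with adjusted p between 0.0726 and 0.202, without the variance trend, and without the filter, and those of Tmem126b and Etfdh also after centring (0.0502 and 0.0900). Subunits with the YY1 letters in their promoter had a median of -0.04 over 10 genes, compared with 0.02 over 54 without; the pairs were 0.02 and 0.00 for NRF1, and 0.01 and 0.00 for GABPA. Granulocyte markers, higher in both samples, passed the test for Ngp (1.02, adjusted p = 0.0378) and Camp (1.14, adjusted p = 0.0422). Both calls held without AAV-Shisa3 sample 2 (0.0418 and 0.0472) and were lost without each of the other samples (0.113 to 0.221), without the variance trend (0.0818 and 0.0825) and without the filter (0.176 and 0.183), and the part of these markers in the values of the subunits was not tested.

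With LPS the same lists held single genes that moved far. Acod1 read 205 at 0 h, 92321 at 2 h and 183998 at 4 h. Its defence and uncoupling list had 3 of 11 genes higher and 2 lower at 2 h and 3 and 3 at 4 h. At the low end was Aox1 (-3.23 and -2.17), an aldehyde oxidase of the cytosol that the name of the list does not describe. The tricarboxylic acid cycle genes had medians of 0.27 at 2 h and 0.11 at 4 h, with 1 of 18 at least 1.5-fold higher and 1 lower at 2 h, and 4 and 4 at 4 h, of which Dld was the highest at 1.51 on the log2 scale and Fh1, fumarase, the lowest at -0.99. Assembly factors had medians of -0.10 and -0.24, with 5 of 47 higher and 17 lower at 2 h and 9 and 17 at 4 h; Sco1, a copper chaperone for complex IV, was the highest at 4 h (3.66) and Coa6, another such factor, the lowest (-2.70). Electron carriers and ubiquinone synthesis had 4 of 16 higher and 3 lower at 2 h and 4 and 4 at 4 h, and of these Pdss1, which starts the ubiquinone side chain, stood at 2.25 and 3.53, and Coq10a at -2.83 and -2.93. Of 22 regulators 5 were higher and 8 lower at 2 h, led by the coactivator Ppargc1b (2.32), and 8 and 6 at 4 h, led by Pprc1 (1.83). Of all genes 29.4% were at least 1.5-fold higher and 34.1% lower at 2 h, and 30.8% and 32.9% at 4 h. These counts and medians are on the deposited scale and have no test, and with equal totals the medians of every list named here are below 0, since each fold is multiplied by 0.632 at 2 h and 0.565 at 4 h.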

How the data were processed

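RNA was sequenced from 7 BMDM samples, and every sample was placed in its group by its label. For the LPS experiment (1 library per time point) the authors deposited a signal per gene, the gene's read count over a scaling factor of its library; 100% of the values were whole reads within a tolerance of 0.01 read, and the reads were recovered from them. For the AAV experiment (2 samples per group) the authors deposited values that sum to between 999778 and 999818, read here as TPM, which is inferred and not stated. The submitters' processing notes name the build mm9; the counting program and its strand setting are not given in the sources used here. The members and gene lists were chosen with earlier results of these data known, and no value of the paper was used.

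LPS log2 fold changes, medians and calls at 1.5-fold were taken on log2(value + 1) for 17854 genes with a mean of at least 1, while the folds printed for single genes are ratios of the deposited values without a pseudocount, with 95% intervals for counting error only (Wilson for shares). With single libraries the count test could not be fitted. AAV samples were compared with limma (trended, two-sided, without a block) on log2(TPM + 1) for the 11218 genes whose mean reached 1 TPM, all of which entered the Benjamini-Hochberg adjustment, at a threshold of 0.05; fold changes on this scale understate those of low genes. On simulated data of 11218 genes with 200 changed, the AAV test recovered 76 of 100 genes changed by 0.5 on the log2 scale. It recovered 100 of 100 changed by 1, with 7 false calls, and made 0 calls with none changed. The simulated spread followed the smoothed trend of spread on level, and as many genes were raised as lowered. Such a setting suits the test, so these rates do not carry over to the measured data. Named genes were all of complex II, the 7 nuclear-encoded core subunits of complex I, the 2 most abundant of each complex and isoform groups. Also named were the 2 highest and 2 lowest changes of each complex but II, in the AAV comparison and at 4 h of LPS. The 15 smallest p were to be named if more than 15 had passed, and the highest and lowest of each list were named. Alternatives were another scaling (equal totals, TMM, centring, nuclear genes rescaled), pseudocounts of 0.1 and 5, other filters, limma without its trend, removal of the trend with transcript length, a replicate block, and leaving out each sample. Exon overlaps and transcript lengths came from GENCODE M21 on GRCm38, which held 99.2% of the LPS identifiers and 96.4% of the AAV symbols. R 4.3.3, limma 3.58.1, edgeR 4.0.16 (TMM factors), Python 3.11.15, matplotlib 3.10.9, scipy 1.17.1, pandas 2.3.3 and numpy 2.4.6 were used.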

Additional observations from a re-analysis of the deposited data

How the results depend on the processing

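With 1 library per LPS time point no difference there has a replicate check, and the 2 h library, at 7263258 reads, leaves low genes least precise. With 2 samples per AAV group only differences well above the spread could pass. Over all genes the AAV calls were 250 higher and 460 lower, but 1 and 4 without the variance trend and 0 and 0 without the filter (20300 genes). After centring they were 410 and 230, and with at least 1 TPM in every sample 325 and 617. They were far fewer whenever 1 sample was left out, a lone sample then being assumed to vary like the other group. With the replicate number as a block the calls were 424 and 851, while members had 0 and 0 and a median of -0.01. The correlation of same-number deviations was 0.188, over 2 pairs that share only a number. Of the genes named only Coq10a gained a call with the block.

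Members had 0 calls in each direction under every AAV alternative, except 1 higher after centring. Their median was -0.01, became 0.11 after centring and ran from -0.032 to 0.055 with 1 sample left out (the highest without AAV-Shisa3 sample 2). Centring also turned the sign of the AAV changes of Sdha (0.019), Sdhd (0.054), Ndufa8 (0.044), Ndufs7 (0.046), Ndufs1 (0.027), Ndufs3 (0.0020), Ndufb6 (0.10), Ndufb8 (0.038), Uqcrc2 (0.11), Atp5j2 (0.050), Atp5c1 (0.064), Atp5g1 (0.070) and Atp5b (0.10), and gave Cox18 a call. Removal of the length trend turned Cox6a1 (-0.057) and Cox5b (-0.049). Leaving out 1 sample turned the sign, within these ranges, of Atp5b (-0.20 to 0.17), Atp5g1 (-0.10 to 0.0063), Atp5c1 (-0.13 to 0.024), Sdha (-0.20 to 0.011), Uqcrc2 (-0.062 to 0.043), Uqcrc1 (-0.071 to 0.11), Cox6a1 (-0.021 to 0.059), Cox5b (-0.045 to 0.077), Ndufb6 (-0.12 to 0.085), Ndufb8 (-0.17 to 0.018), Ndufa4 (-0.00012 to 0.17) and Suclg2 (-0.53 to 0.010). None of these passed the test. Of the 47 named members tested, 35 moved by over 1.5 times or turned when 1 of the 4 samples was left out.

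For LPS at 2 h, 14 members were higher and 3 lower with a median of 0.29. Equal totals gave 2, 20 and -0.37, centring 40, 0 and 0.60 (38.4% and 26.6% of all genes passing), and TMM a median of 0.22. At 4 h, 9 were higher and 1 lower with a median of 0.16. Equal totals gave 0, 43 and -0.64, centring 34, 0 and 0.53 (41% and 24.3%), TMM a median of 0.12, no filter a median of 0.18 and a pseudocount of 5 gave 0 lower. From 2 h to 4 h, 6 were higher and 9 lower with a median of -0.09. Equal totals gave 2, 18 and -0.26, TMM a median of -0.074, and centring 7, 7 and -0.035 (31.2% and 22.2%). Equal totals turned Cox6a1 at 2 h (-0.0075) and, at 4 h, Ndufc1 (-0.20), Ndufb6 (-0.17), Uqcrfs1 (-0.11), Cox5a (-0.065), Atp5e (-0.16), Atp5b (-0.12), Atp5g3 (-0.078) and mt-Atp6 (-0.075). Equal totals, TMM and centring each apply 1 factor to a library; for the filter and the pseudocount the cause was not tested.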

Other observations

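The AAV table lists further subunits under symbols that the LPS table does not use, and their values are given here without a comparison. Atp5pb, the present name of the peripheral stalk subunit b of ATP synthase, stood at 175.96 and 174.68 TPM with AAV-GFP and at 170.52 and 149.92 TPM with AAV-Shisa3. Atp5md stood at 347.50 and 324.74 against 343.58 and 334.38, and Atp5mpl at 249.70 and 232.20 against 293.19 and 229.26. Ndufb4c, a gene related to Ndufb4 of complex I, stood at 141.81 and 117.55 against 145.31 and 115.23. In the LPS libraries Atp5f1, the older name of Atp5pb, stood at 1610 at 0 h, 1909 at 2 h and 2751 at 4 h on the deposited values. Atp5sl, a relative of ATP synthase subunit s, stood at 366, 111 and 52.2, and Atp5s at 33.4, 6.55 and 5.98. Both were lower at 2 h and 4 h than at 0 h on the deposited scale and with equal totals, with 1 library per time point and no test.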
